A study of Mus musculus with 42 samples.

Results

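The gene expression of mouse embryonic stem cells after 108 h of undirected differentiation was compared with that at the time points 6 h before and 6 h after it. Both 108 h libraries (replicates A and B) were set against the 4 libraries of 102 h and 114 h, out of 42 libraries taken every 6 h from 0 h to 120 h at 21 time points. Of 14296 genes, 158 were called higher at 108 h and 153 were called lower, and each of these 311 genes peaked or dipped in replicate A and again in replicate B. Called means an adjusted p under 0.0001 in limma on log2 CPM, the reads of a gene scaled to the normalized size of its library. A peak means a 108 h value above both the 102 h and the 114 h value of the same replicate, and a dip a value below both.

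All libraries came from W9.5, a single embryonic stem cell line of 129X1/SvJ background, and no group carried a gene deletion, a transgene or an added agent in the labels. The groups differed in hours since differentiation was induced, and the labels give biological duplicate cultures, lettered A and B. W9.5 cells were left to form embryoid bodies, floating aggregates in which several lineages arise side by side without a directing factor. Poly-A RNA was read with a stranded kit. The 6 libraries held between 17759800 and 34901462 counted reads, and normalization by the authors scaled these totals by 0.971 to 1.04. On the scaled totals 3 reads were worth 0.0879 to 0.164 CPM.

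Cells that receive a growth factor signal through the ERK kinase cascade first transcribe immediate early genes, most of which encode transcription factors of the EGR, FOS, JUN and KLF families. A later set of genes encodes the brakes of the cascade, the Sprouty and Spred proteins and the dual specificity phosphatases, which act on the receptor signal or remove phosphate from the kinases. Serum and actin dynamics act on many of the same genes through serum response factor (SRF), which binds the CArG box. ERK signalling is known in early embryos for moving pluripotent cells towards lineage choice.

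Promoter windows from 250 bases before to 50 after the transcription start were read from RefSeq on GRCm38.p6 for 117 of the 158 peak genes (161 windows) and 121 of the 153 dip genes (151 windows), out of 13721 windows of all genes measured. The first 3 sequences belong to peak genes and the last 2 to dip genes. Capitals mark, on either strand, the metal response motif (TGCACNC or TGCGCNC) in Slc30a1, the CArG box in Dusp5 and Srf, and CCAAT, the NF-Y motif, in Klf15 and Zbtb5. The sequences are shown because Slc30a1 had the largest peak and Dusp5 and Srf are peak genes with CArG boxes. Klf15 led the dips by its test statistic together with Xkr8, and Zbtb5 carried 4 CCAAT motifs. CCAAT also stands, unmarked, in the Slc30a1 and Srf windows.
Slc30a1, plus strand, chr1:191906531-191906830: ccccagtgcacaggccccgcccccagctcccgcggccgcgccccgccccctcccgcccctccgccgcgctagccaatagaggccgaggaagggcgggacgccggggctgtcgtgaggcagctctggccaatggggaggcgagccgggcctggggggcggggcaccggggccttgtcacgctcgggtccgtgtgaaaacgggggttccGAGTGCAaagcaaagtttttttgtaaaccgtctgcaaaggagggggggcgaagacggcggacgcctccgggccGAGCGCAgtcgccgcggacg
Dusp5, plus strand, chr19:53528895-53529194: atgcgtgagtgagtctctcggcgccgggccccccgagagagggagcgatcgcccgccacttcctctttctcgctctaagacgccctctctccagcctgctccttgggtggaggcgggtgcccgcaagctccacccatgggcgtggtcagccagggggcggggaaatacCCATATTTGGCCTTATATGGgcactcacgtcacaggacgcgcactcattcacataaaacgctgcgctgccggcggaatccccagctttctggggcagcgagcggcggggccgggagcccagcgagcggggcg
Srf, minus strand, chr17:46556113-46556412: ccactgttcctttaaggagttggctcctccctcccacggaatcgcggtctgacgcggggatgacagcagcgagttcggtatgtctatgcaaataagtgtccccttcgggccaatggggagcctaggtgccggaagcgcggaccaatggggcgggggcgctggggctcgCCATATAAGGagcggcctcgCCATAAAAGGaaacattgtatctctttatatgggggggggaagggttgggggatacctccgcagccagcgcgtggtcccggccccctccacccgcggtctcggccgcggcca
Klf15, plus strand, chr6:90462326-90462625: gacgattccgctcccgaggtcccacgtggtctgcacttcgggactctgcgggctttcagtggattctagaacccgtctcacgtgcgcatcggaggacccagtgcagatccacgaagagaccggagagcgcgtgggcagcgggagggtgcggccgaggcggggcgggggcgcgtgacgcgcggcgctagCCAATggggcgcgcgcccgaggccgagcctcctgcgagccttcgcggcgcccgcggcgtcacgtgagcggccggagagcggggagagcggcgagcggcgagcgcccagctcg
Zbtb5, minus strand, chr4:45012363-45012662: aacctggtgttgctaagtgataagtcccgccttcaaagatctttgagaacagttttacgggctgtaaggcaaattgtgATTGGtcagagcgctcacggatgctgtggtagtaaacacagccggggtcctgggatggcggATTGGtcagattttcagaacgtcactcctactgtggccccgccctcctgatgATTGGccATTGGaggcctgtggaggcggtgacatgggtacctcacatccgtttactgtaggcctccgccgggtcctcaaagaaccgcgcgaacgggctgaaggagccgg

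The CArG box was found in 3.73% of the peak windows (6 of 161), in 1.29% of all windows and in 0 of the 151 dip windows. CCAAT was found in 57.0% of the dip windows, in 37.6% of all windows and in 32.9% of the peak windows. The cyclic AMP response motif TGACGTCA stood in 5.59% of the peak windows and 2.98% of all windows, and was in 0 dip windows. The motifs of AP-1 (TGANTCA) and TCF/LEF (CTTTGA) were in 4.97% and 14.9% of the peak windows against 4.77% and 11.6% of all windows. GGAATG, the TEAD motif, was in 12.4% of the peak windows and 12.3% of all windows, and in 5.96% of the dip windows. The SP1 motif GGGCGG was in 72.7% of peak, 74.8% of dip and 62.9% of all windows. The ETS motif CCGGAAG was in 10.6% of the peak windows and 16.4% of all windows. A metal response motif was in 32.9% of the peak windows and 36.2% of all windows, so its presence in the Slc30a1 window is common to many genes. The metal response motif was added after the values were seen, the CArG box held CCAAT on either strand in 2 of the 6 peak windows with a box (Tbc1d9 and Pip5k1a), and each match describes letters in a window and no binding.

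The called genes made up 1.11% of all genes on the higher side and 1.07% on the lower side. At an adjusted p under 0.05, 1159 genes (8.11%) were higher and 1207 (8.44%) were lower, of which 1080 and 1139 had the peak or dip in both replicates. The peak in both replicates alone, with no test, was seen in 2793 genes and the dip in 2928. The difference between 108 h and the mean of the flanking time points ran from 0.41 to 3.27 on the log2 scale in the peak genes, with a median of 0.85, and 50 of them exceeded a 2-fold change. In the dip genes its size ran from 0.39 to 2.29, with a median of 0.89, and 57 exceeded a 2-fold change. Over all 14296 genes the median difference was 0.00 and the median of its size was 0.21. Of all genes, called or not, 485 exceeded a 2-fold change in either direction.

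The values of each replicate entered the call, so they are given as a description. The median difference of the peak genes was 0.82 in replicate A and 0.91 in replicate B, and that of the dip genes was -0.87 and -0.95. In 157 of the 158 peak genes and in all 153 dip genes, both 108 h libraries lay beyond all 4 flanking libraries, which held for 31% of all genes and follows in the called genes from the contrast that chose them. The libraries of 108 h were nearer to each other (Euclidean distance of 39.4 over all genes) than to any other library, the next being 102 h replicate A at 59.2 and 65.1. With replicate as a block in the fit, 252 genes were called higher and 204 lower. Without 108 h replicate A the calls were 58 higher and 44 lower, without 108 h replicate B 39 and 29, without 102 h replicate B 101 and 82, and without 114 h replicate B 80 genes were called lower. With the 6 libraries of 102 h, 108 h and 114 h alone, 23 genes were called higher and 0 lower in limma, and all 311 had an adjusted p under 0.05. In each of these fits all 311 genes kept the sign of their difference, which follows largely from the peak or dip that chose them.

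**Figure D1:**
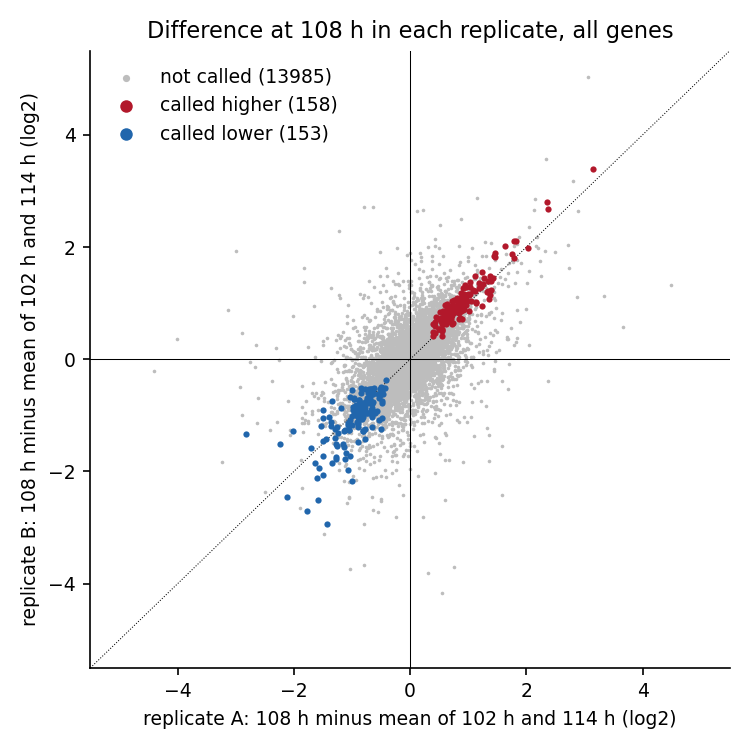
Difference between 108 h and the mean of 102 h and 114 h (log2) in replicate A (horizontal axis) and replicate B (vertical axis), 1 point per gene, with called genes in red (158 higher) and blue (153 lower) and the dotted line marking equal differences. The called genes lie along the dotted line in the upper right and lower left, away from both axes, and Slc30a1 is the called gene farthest to the upper right.

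The largest peak was in Slc30a1 (ENSMUSG00000037434.7, chromosome 1, 191906767 to 191913247, GRCm38), which encodes ZnT1, the zinc exporter of the plasma membrane. Slc30a1 read 3.74 (A) and 3.39 (B) log2 CPM at 102 h, 6.64 and 6.92 at 108 h, and 3.24 and 3.66 at 114 h. The level went up and came back within 12 h, and the 108 h libraries stood far above all 4 others. The difference was 3.27 with a standard error (SE) of 0.12, a 9.66-fold change, at an adjusted p of 1.50e-16 in limma, and 108 h had the highest mean of the 21 time points. Mt1 and Mt2, the metallothioneins that bind zinc and copper, differed by 0.04 ± 0.23 (SE) and 0.13 ± 0.19 with adjusted p of 0.935 and 0.727. At 6 h, by contrast, Mt1 and Mt2 were higher than at 0 h and 12 h by 3.05 and 3.15, with adjusted p of 6.65e-11 and 5.48e-13, and Slc30a1 by 0.83 at 5.21e-06. The difference between these patterns was not tested across genes.

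Of the 14 measured NRF2 and metallothionein genes, which answer oxidants and metals, 3 rose, 0 fell and 11 were not called, with a median difference of 0.12 against 0.00 over all genes. With the replicate block 4 rose. Hmox1, heme oxygenase, rose by 1.40 ± 0.11 to 8.23 and 8.48 log2 CPM, from 6.90 and 6.76 at 102 h, and was back at 7.09 and 7.07 at 114 h (adjusted p of 2.05e-09). Gclc, the catalytic subunit that makes glutathione's precursor, rose by 0.62 ± 0.09 (adjusted p of 2.40e-05). Its partner subunit Gclm differed by 0.44 with an adjusted p of 5.01e-04 and was not called. Nqo1, another NRF2 target, differed by -0.23 with an adjusted p of 0.416.

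Immediate early genes had the highest median of the 35 lists, 1.19 over 24 measured members. Of them 7 rose, 0 fell and 17 were not called, and at an adjusted p under 0.05 the counts were 19 higher and 1 lower. The 7 were Fosl1, Egr1, Nr4a1, Klf6, Maff, Junb and Klf10. Egr1, a zinc finger factor induced by ERK, read 5.06 and 5.08 at 102 h, 6.33 and 6.38 at 108 h, and 4.81 and 4.89 at 114 h. Both 108 h libraries lay above the other 4, by 1.40 ± 0.20 over their mean (adjusted p of 1.35e-05).

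Klf6, a Krüppel-like factor, stood at 7.80 and 7.57 before, 9.25 and 9.14 at the peak, and 8.25 and 8.14 after, a difference of 1.25 ± 0.09 (adjusted p of 1.99e-10). Its 108 h mean was the highest of the course. Nr4a1, an orphan nuclear receptor, went from 5.57 and 5.60 to 7.25 and 7.13 and then to 6.16 and 6.20, a difference of 1.31 ± 0.13 (adjusted p of 4.59e-08), and had its highest mean at 6 h. Fosl1, the FOS relative FRA1, went from 0.16 and -0.55 to 3.27 and 3.34 and then to 1.67 and 1.64, a difference of 2.57 ± 0.40 (adjusted p of 4.44e-05). Junb, a JUN family subunit of AP-1, rose by 1.004 ± 0.13 (adjusted p of 2.34e-06), the small MAF protein gene Maff by 1.22 ± 0.17 (7.50e-06) and Klf10 by 0.69 ± 0.09 (2.69e-06).

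Other members had like sizes without passing the threshold. Fos differed by 1.36 with an adjusted p of 1.20e-04, and was called with the replicate block at 8.09e-05. Egr2 and Egr3 differed by 2.51 and 2.95, with SEs of 0.71 and 0.81 and adjusted p of 0.0149 and 0.0120. Myc differed by 1.16 at an adjusted p of 7.04e-03, and Atf3 by 1.24 at 4.55e-04. Jun itself differed by 0.21 ± 0.13 (adjusted p of 0.325), and Btg2, an antiproliferative gene of the list, by -0.38 (0.0212). Nab2, a corepressor that binds EGR proteins and was among the 12 largest peaks, rose from 4.35 and 4.04 to 5.90 and 6.13 and returned to 4.53 and 4.42, a difference of 1.68 ± 0.12 (adjusted p of 1.99e-10).

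Of 23 measured FGF and ERK feedback genes, the brakes of the cascade with some of its ligands and receptors, 8 rose, 0 fell and 15 were not called, with a median of 0.57, and at an adjusted p under 0.05 12 were higher and 1 was lower. Spry4, a Sprouty inhibitor, read 4.0 and 4.28 at 102 h, 6.06 and 6.68 at 108 h, and 4.57 and 4.88 at 114 h. The difference was 1.94 ± 0.18 (adjusted p of 3.14e-08), and Spry4 had its highest mean of the course at 6 h. Spry2, its relative, went from 7.28 and 7.52 to 8.80 and 9.06 and then to 7.64 and 7.81 (1.37 ± 0.12, adjusted p of 9.45e-09). Spry1 differed by 0.31 ± 0.15 and was not called (adjusted p of 0.176).

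Dusp5, the nuclear phosphatase for ERK whose promoter window is printed above, went from 5.10 and 5.26 to 7.496 and 7.48 and then to 6.31 and 6.08. The difference was 1.80 ± 0.14 (adjusted p of 7.97e-10), and the 114 h libraries stayed above those of 102 h. Dusp6, the cytoplasmic ERK phosphatase, rose by 0.96 ± 0.10 (adjusted p of 1.17e-07), with 7.69 and 7.91 at 108 h against 6.64 to 7.24 in the flanking libraries. Dusp4 rose by 0.80 ± 0.11 (5.54e-06), Spred1 by 0.70 ± 0.11 (3.12e-05) and Phlda1 by 1.08 ± 0.15 (1.34e-05). Fgf5, the FGF ligand of the epiblast, rose by 0.93 ± 0.15 (adjusted p of 8.72e-05).

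The receptors and the ETS factors downstream were not called. Fgfr1 differed by 0.10 ± 0.09, Fgfr2 by 0.58 ± 0.15 (adjusted p of 5.55e-03), Etv5 by 0.00 ± 0.12 and Etv4 by -0.92 ± 0.32 (0.0494). Il17rd, which encodes the FGF antagonist Sef, differed by 0.76 with an adjusted p of 2.30e-04 and was called with the replicate block (1.46e-05). Epha2, a receptor tyrosine kinase for ephrins and also among the 12 largest peaks, rose from 6.18 and 6.05 to 8.12 and 8.37 and read 6.54 and 6.92 at 114 h (1.82 ± 0.20, adjusted p of 3.10e-07). Efna1, a ligand of that receptor, fell from 3.08 and 3.22 to 1.47 and 1.14 and read 2.39 and 2.59 at 114 h (-1.52 ± 0.20, adjusted p of 3.96e-06).

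**Figure D2:**
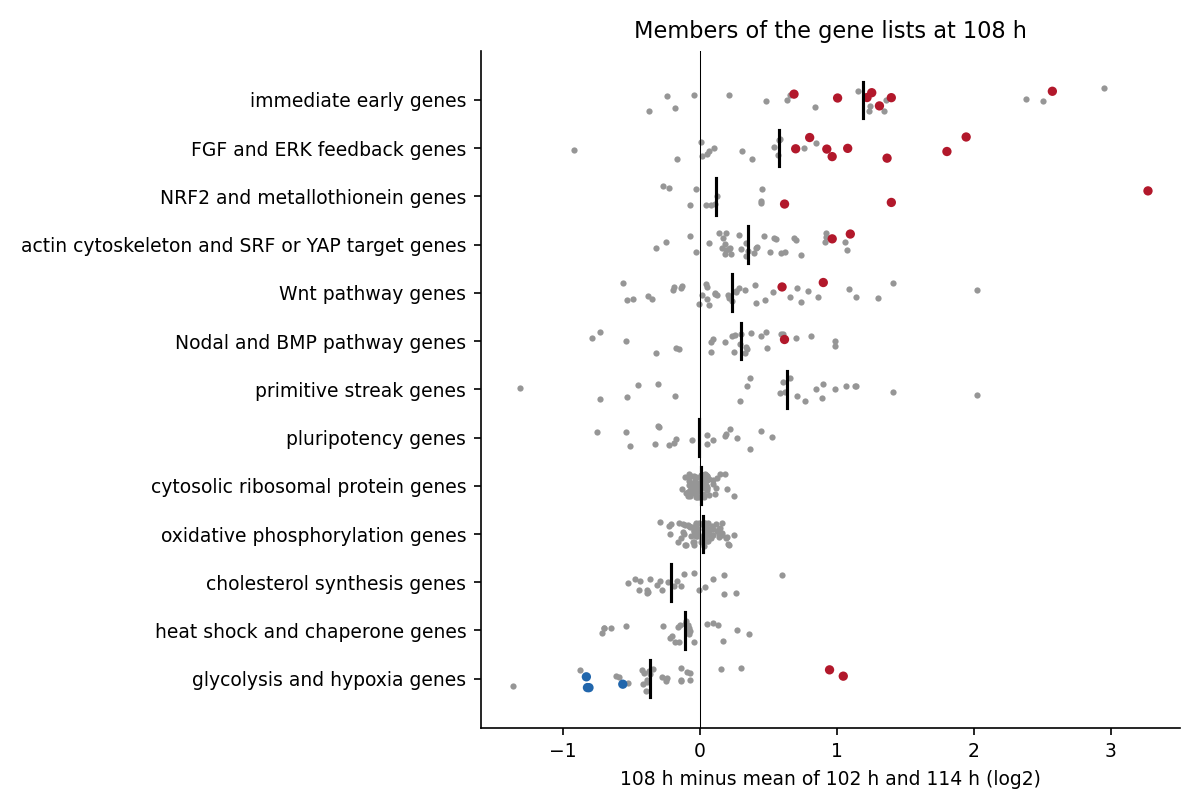
Difference between 108 h and the mean of 102 h and 114 h (log2, horizontal axis) for the measured members of 13 gene lists (rows), 1 point per gene, red or blue where called and grey where not, with a black bar at the median of each list. The median stands at 1.19 for immediate early genes and at -0.37 for glycolysis and hypoxia genes, and the ribosomal and oxidative phosphorylation genes crowd around 0.

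Genes of the actin cytoskeleton and of SRF or YAP counted 2 risen, 0 fallen and 37 not called among 39 measured, with a median of 0.35. With the replicate block 5 rose. At an adjusted p under 0.05, 14 were higher and 0 were lower. Srf itself, whose window carries CArG boxes, read 6.18 and 6.00 at 102 h, 7.29 and 7.20 at 108 h, and 6.35 and 6.07 at 114 h. The difference was 1.10 ± 0.13 (adjusted p of 1.01e-06), and the 108 h mean was the highest of the course.

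Ajuba, a LIM protein that holds back the Hippo kinases, rose by 0.96 ± 0.11 to 9.17 and 9.30 (adjusted p of 4.34e-07). Vcl, vinculin, differed by 0.74 with an adjusted p of 1.09e-04, and Amotl2, a YAP target, by 0.91 with 1.42e-04. Ccn1 differed by 0.70 (4.48e-04) while Ccn2, its relative and also a YAP target, differed by 0.30 ± 0.15 (0.197). Among genes of actin fibres, Actb differed by 0.19 ± 0.11 (adjusted p of 0.277), Acta2 by 0.59 ± 0.69 (0.641) and Smtn, smoothelin, by 0.62 (1.82e-03).

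Of 41 measured Wnt pathway genes 2 rose, 0 fell and 39 were not called, with a median of 0.23. Fzd6, a Frizzled receptor, rose from 4.68 and 4.61 to 5.44 and 5.32 and returned to 4.37 and 4.27 (0.90 ± 0.10, adjusted p of 4.72e-07). Fzd7 rose by 0.60 ± 0.09, with 7.47 and 7.70 at 108 h against 6.91 to 7.13 in the flanking libraries (adjusted p of 1.80e-05). Sp5, a Wnt target, read 5.86 and 6.34 at 108 h against 3.67 to 4.61, yet its difference of 2.03 had an SE of 0.82 and an adjusted p of 0.0965 in a fit that shares 1 spread across all time points for each gene.

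Of 29 Nodal and BMP pathway genes 1 rose, 0 fell and 28 were not called, with a median of 0.30, and 3 rose with the replicate block. Smad1, which carries BMP signals, went from 4.88 and 4.84 to 5.49 and 5.63 and then to 5.06 and 4.99 (0.61 ± 0.08, adjusted p of 3.02e-06). Nodal, the ligand of the primitive streak, read 7.42 and 7.64 at 108 h against 6.31 to 6.88 in the flanking libraries. Its difference of 0.98 had an adjusted p of 1.44e-04, and 5.12e-05 with the replicate block. Lefty2, the antagonist of Nodal, differed by -0.73 with an adjusted p of 0.0173.

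Lineage lists had few calls. Of 15 formative and epiblast genes 2 rose and 0 fell, with a median of 0.00: Fgf5 (above) and the POU factor gene Pou3f1, which read 6.50 and 6.69, then 7.21 and 7.33, then 6.08 and 6.04 (0.94 ± 0.16, adjusted p of 9.84e-05). Of 16 neuroectoderm genes 1 fell and 0 rose, with a median of 0.11, and 1 rose with the replicate block. The gene that fell was Tubb3, neuronal beta tubulin, with 2.45 and 2.26 at 102 h, 1.76 and 2.13 at 108 h, and 4.12 and 4.39 at 114 h (-1.36 ± 0.20, adjusted p of 1.53e-05). Most of that difference lay on the 114 h side.

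Over all genes 14.1% were higher and 14.2% lower at 108 h at an unadjusted p under 0.05, and the counts at that level here and below stand beside those shares. No member was called by limma among 20 pluripotency genes (3 higher and 2 lower at an unadjusted p under 0.05), 24 primitive streak genes (6 and 3), 15 endoderm genes (0 and 1) and 20 mesoderm and blood vessel genes (1 and 2). The same held for 7 trophoblast genes (0 and 1), 12 germ cell genes (1 and 2), 5 Hox genes (2 and 0), 19 Notch pathway genes (5 and 5), 31 matrix and adhesion genes (7 and 2) and 11 protocadherin genes (2 and 0). The median of the primitive streak list was 0.64, and 1 of its members was called with the replicate block. Pou5f1 (OCT4) read 8.29 and 8.49 at 108 h against 8.55 to 8.93 (-0.30 ± 0.15, adjusted p of 0.193). Pcdh7, Frzb, Thsd7a, Cap1 and Mpped2 differed by 0.94, 0.70, 0.55, -0.03 and 0.16, with adjusted p of 0.205, 0.444, 0.323, 0.899 and 0.694.

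The markers of 9 cell types counted 32 measured genes of 45, of which limma called 0 (6 at an unadjusted p under 0.05, where 28.3% of all genes passed, and 1 with the replicate block). The summed CPM of the markers of undifferentiated or epiblast-like cells was 1312 and 1519 at 108 h and 1401 to 1773 in the flanking libraries. For the primitive streak it was 92.7 and 136 against 53.8 to 127. For the neuroectoderm it was 355 and 328 against 168 to 236, with Nes, the neural filament nestin, at 8.29 and 8.14 against 7.13 to 7.67 log2 CPM (adjusted p of 1.41e-04). Nes made up most of that sum, and Zic1 of the same set differed in the other direction, by -1.45 with an adjusted p of 0.0130. Fibroblast feeder markers summed to 33.3 and 34.3 against 29.1 to 72.7, mesoderm markers to 7.48 and 7.88 against 5.67 to 13.1, endoderm markers to 8.07 and 9.13 against 8.12 to 8.93, trophoblast markers to 35.0 and 33.2 against 22.5 to 64.1 and cardiomyocyte markers to 6.60 and 6.56 against 6.70 to 9.69. The erythroid marker stood at 0.395 and 0.518 against 0.274 to 0.776. In whole embryoid bodies a change in the cells of a type and a change in RNA per cell cannot be told apart.

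Among dip genes that averaged at least 2 log2 CPM in the higher group, the largest difference was in Txnip (chromosome 3, 96557957 to 96561883), which encodes an inhibitor of glucose uptake and of thioredoxin. Txnip read 8.67 and 9.39 at 102 h, 6.54 and 6.34 at 108 h, and 7.55 and 7.16 at 114 h. The 108 h libraries were the lowest of the 6. The 108 h mean was the lowest of the course, though barely below that of 60 h (6.53 and 6.35). The difference was -1.75 ± 0.26, a 3.37-fold change (adjusted p of 2.66e-05). Klf15, a Krüppel-like factor induced by glucocorticoids, fell from 3.56 and 3.45 to 1.60 and 1.76 and read 3.04 and 3.22 at 114 h (-1.64 ± 0.12, adjusted p of 2.64e-10). Xkr8, a phospholipid scramblase, fell from 2.10 and 2.40 to 0.83 and 0.73 and read 2.83 and 2.75 at 114 h (-1.74 ± 0.13, adjusted p of 2.64e-10). Each of these genes had its highest mean at 0 h.

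The other large dips were of genes at low levels. Slc25a42, a mitochondrial coenzyme A carrier, fell from 2.99 and 3.30 to 1.91 and 1.80 and read 3.37 and 3.32 at 114 h (-1.39 ± 0.15, adjusted p of 3.14e-07). Sirt4, a mitochondrial sirtuin, fell by 1.27 on the log2 scale (2.87e-06), the zinc finger gene Zscan2 by 1.34 (3.48e-06) and Aire, the autoimmune regulator, by 1.39 (2.92e-06). The homeobox gene Phox2a fell by 1.35 (5.37e-05), 2900052L18Rik by 1.47 (1.35e-05) and Gm15545 by 1.38 (5.48e-06). Both 108 h libraries lay below all 4 flanking libraries in each of them. Zbtb5, a BTB zinc finger gene chosen for its promoter window, fell from 4.60 and 4.52 to 3.54 and 3.40 and read 4.55 and 4.44 at 114 h (-1.06 ± 0.11, adjusted p of 2.40e-07).

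Glycolysis and hypoxia genes moved in both directions. Of 32 measured members 4 fell, 2 rose and 26 were not called, with a median of -0.37, and at an adjusted p under 0.05 15 were lower and 2 were higher. Pfkp, the platelet form of phosphofructokinase, read 5.74 and 5.60 at 102 h, 5.04 and 5.05 at 108 h, and 5.97 and 6.16 at 114 h (-0.82 ± 0.08, adjusted p of 2.07e-08). Pfkl, the liver form, fell by 0.57 on the log2 scale (4.76e-05). P4ha1, a collagen prolyl hydroxylase, fell by 0.81 (2.23e-07) and Egln3, an oxygen sensing prolyl hydroxylase, by 0.83 (6.08e-06). P4ha1 was low at 102 h already, at 5.69 and 5.58, and read 5.35 and 5.30 at 108 h and 6.62 and 6.65 at 114 h.

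Ldha, lactate dehydrogenase A, differed by -0.62 with an adjusted p of 4.16e-04, and Aldoa, aldolase A, by -0.53 with 1.03e-03. Slc2a1 and Slc2a3, the glucose transporters, differed by -0.14 each, with adjusted p of 0.410 and 0.618. The members that rose were Pfkfb3, which makes the activator of phosphofructokinase, and Bhlhe40, a repressor shared with the clock list. Pfkfb3 read 5.94 and 5.67, then 7.15 and 7.08, then 6.46 and 6.22 (1.05 ± 0.12, adjusted p of 5.78e-07). Bhlhe40 read 6.59 and 6.47, then 7.65 and 7.67, then 6.97 and 6.83 (0.95 ± 0.11, adjusted p of 5.69e-07).

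**Figure D3:**
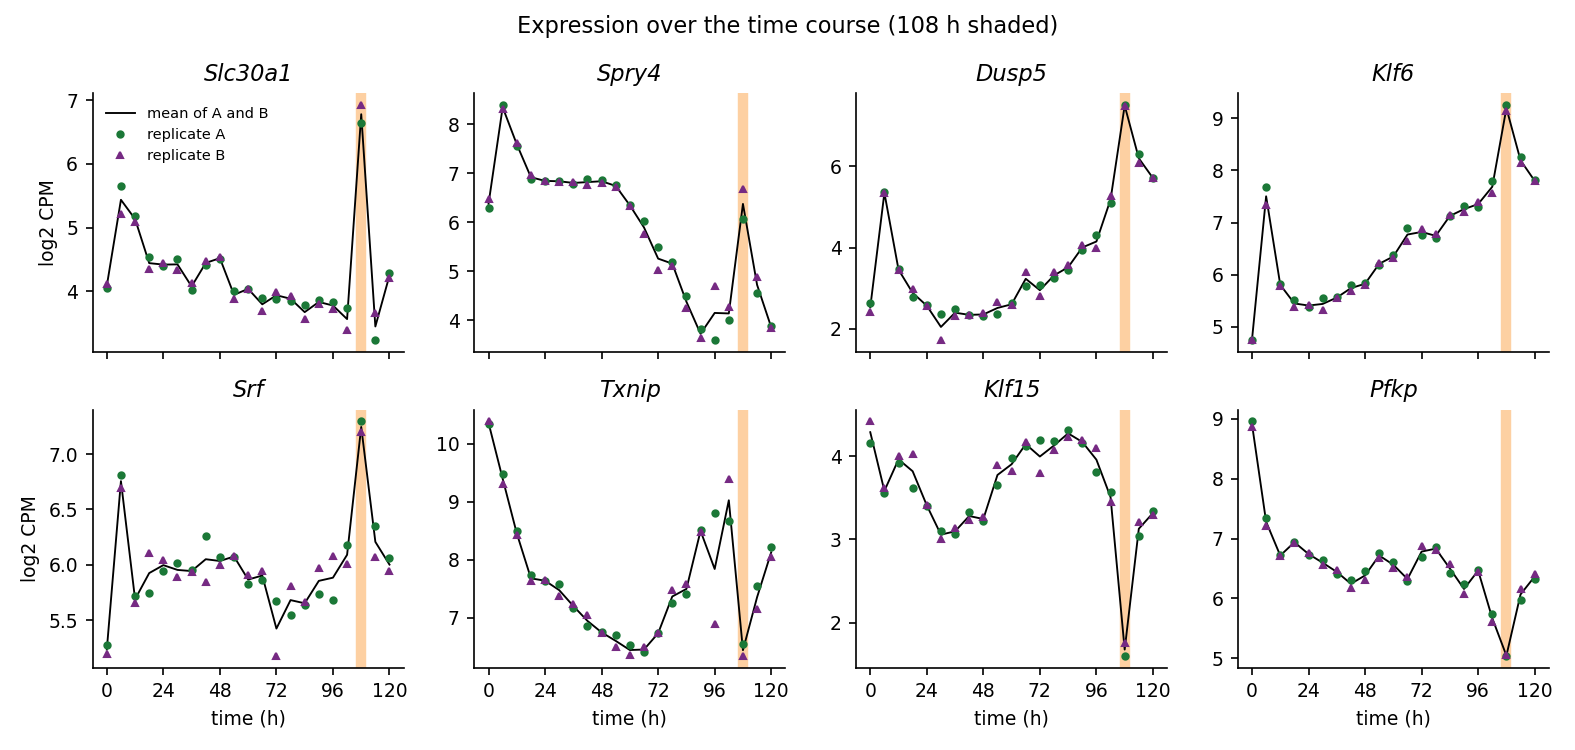
Expression in log2 CPM (vertical axes, separate scales) over 21 time points in hours (horizontal axes) of 5 peak genes and 3 dip genes, with replicate A as circles, replicate B as triangles, their mean as a line and 108 h shaded. Slc30a1, Dusp5, Klf6 and Srf have their highest mean at 108 h, Spry4 has its highest at 6 h, and Txnip, Klf15 and Pfkp have their lowest at 108 h. Txnip is about as low at 60 h.

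Of 18 circadian clock genes 1 rose (Bhlhe40), 1 fell and 16 were not called, with a median of 0.20, and with the replicate block 2 rose. The gene that fell was Per1, a period gene, from 4.65 and 4.61 to 3.72 and 3.57, with 4.62 and 4.41 at 114 h (-0.92 ± 0.15, adjusted p of 6.25e-05). Its relative Per2 differed in the other direction, by 1.58 ± 0.27, with an adjusted p of 1.12e-04, and 9.05e-05 with the replicate block. Of 18 abundant noncoding RNA genes 2 fell, 0 rose and 16 were not called, with a median of -0.22. Neat1, the scaffold RNA of paraspeckles, fell from 6.82 and 6.73 to 5.93 and 6.01 and was back at 6.99 and 7.11 at 114 h (-0.94 ± 0.11, adjusted p of 1.19e-06). Miat fell from 1.38 and 0.48 to -0.54 and -0.13 and read 1.56 and 1.82 at 114 h (-1.64 ± 0.27, adjusted p of 9.22e-05). Both RNAs share exon sequence on their own strand with short annotated genes.

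Of 39 splicing factor and kinase genes 1 rose and 1 fell, with a median of 0.13, and 2 rose with the replicate block. Ccnl1, a cyclin of splicing, rose from 6.25 and 6.35 to 7.14 and 7.32 and read 6.41 and 6.49 at 114 h (0.85 ± 0.08, adjusted p of 2.25e-08). Clk2, a kinase of splicing factors, fell from 6.08 and 6.07 to 5.199 and 5.10 and read 6.09 and 6.03 at 114 h (-0.92 ± 0.10, adjusted p of 3.86e-07). Of 26 ATF4 and amino acid genes 1 rose and 1 fell, with a median of -0.02, and 2 rose with the replicate block. Slc38a2, an amino acid transporter, rose by 0.70 ± 0.11 (adjusted p of 4.53e-05), and Chac1, which breaks down glutathione, fell by 1.44 on the log2 scale (5.25e-05). Of 21 p53 target genes 1 rose and 0 fell, with a median of 0.01: Pmaip1, the BH3 gene Noxa, by 0.71 ± 0.10 (adjusted p of 1.81e-05).

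The remaining large peaks fell into no list. Pla2g4c, a cytosolic phospholipase A2, rose from 0.84 and 0.30 to 3.28 and 3.42 and returned to 0.96 and 1.19 (2.53 ± 0.22, adjusted p of 5.38e-09). Col11a2, a collagen XI chain, rose from 0.73 and 0.53 to 2.76 and 2.72 and returned to 0.73 and 0.95 (2.003 ± 0.27, adjusted p of 6.85e-06). Tbc1d9, which encodes a TBC domain protein, rose from 3.93 and 3.50 to 5.61 and 5.66 and returned to 3.65 and 3.598 (1.97 ± 0.16, adjusted p of 3.21e-09). In all 3 the 108 h libraries stood above those of 102 h and 114 h, but other time points were not all low. Col11a2 read 1.70 and 2.24 at 96 h and 1.66 and 2.04 at 120 h. Pla2g4c read 2.83 and 2.75 at 6 h.

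Ppp1r10, a nuclear regulator of protein phosphatase 1, rose by 1.64 ± 0.14 (adjusted p of 9.45e-09) and Zbtb2, a zinc finger repressor, by 1.65 ± 0.16 (3.54e-08). Utp14b, a ribosome assembly gene, rose by 1.82 ± 0.21 (6.98e-07), and its exons overlap those of Acsl3 on the same strand. How reads in that overlap were counted is not given in the sources used here, so its value is uncertain to that extent. Of the 158 peak genes 9 overlapped another gene in exons on their own strand and 56 on the opposite strand, and of the 153 dip genes 11 and 49. The exons of Slc30a1, Fosl1, Nab2, Junb, Dusp5, Phlda1, Tbc1d9, Fzd6, Ccnl1, Bhlhe40, Pou3f1, Irf1 and Chst15 among the peaks, and of Txnip, Aire, Phox2a, Pfkp, Zbtb5, Gm15545 and Miat among the dips, overlap opposite-strand genes. The strand setting of the counting is not given in the sources used here, so the values of these genes are uncertain to that extent.

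Lists of general cell functions gave no call. Of 74 cytosolic ribosomal protein genes limma called 0, with 0 at an unadjusted p under 0.05 and a median of 0.01, and of 74 oxidative phosphorylation genes 0, with 1 lower at an unadjusted p under 0.05 and a median of 0.02. The shares of all genes at an unadjusted p under 0.05 were 14.1% higher and 14.2% lower, as given above. Calls were 0 of 35 DNA replication genes (5 higher and 2 lower at an unadjusted p under 0.05), 0 of 29 mitosis genes (1 and 1), 0 of 9 histone genes (0 and 3) and 0 of 14 mitochondrially encoded genes (1 and 0). They were also 0 of 39 chromatin genes (9 and 3), 0 of 20 imprinted genes (1 and 2) and 0 of 18 apoptosis genes (4 and 3). The 24 cholesterol synthesis genes had 0 calls, 10 lower and 2 higher at an unadjusted p under 0.05, and a median of -0.21. The 26 heat shock and chaperone genes had 0 calls, 6 lower and 1 higher at an unadjusted p under 0.05, and a median of -0.11, and 1 was called lower with the replicate block.

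The libraries of 0 h, 6 h and 12 h are separate from those of 102 h to 114 h. The genes of 108 h were therefore followed at 6 h after induction, the other time point with many calls. At 6 h 855 genes (5.98%) were called higher than at 0 h and 12 h together and 923 (6.46%) lower. Of the 158 peak genes 85 were higher at 6 h, which is 53.8% of them and 9.94% of the 855. Of the 153 dip genes 38 were lower at 6 h, which is 24.8% of them and 4.12% of the 923. The median 6 h difference was 0.66 over the peak genes and -0.35 over the dip genes, and 137 peak genes were positive and 120 dip genes negative there. Over all 14296 genes the median was 0.00, with 7159 positive and 7137 negative. These shares are described without a test. A call at 6 h asked for a difference from the mean of 0 h and 12 h, and for no peak or dip in each replicate. A gene that changed after 0 h and did not come back by 12 h could thus be counted. The fit gives each gene 1 spread for both contrasts, so a gene with a small spread had a better chance of a call at 108 h and at 6 h alike.

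Of the 24 immediate early genes 9 were higher at 6 h, with a median of 0.84, against 1.19 at 108 h. Of the 39 actin and SRF or YAP genes 23 were higher at 6 h, with a median of 1.14 against 0.35 at 108 h. Klf6 and Srf were higher at 6 h by 2.22 and 1.29 and Dusp5 by 2.35. Spry2 (0.09, adjusted p of 0.615), Klf10 (0.19, 0.0901), Maff (0.22, 0.303), Bhlhe40 (0.16, 0.237) and Pfkfb3 (-0.06, 0.739) were not called at 6 h. A small value can hide a steady change. Bhlhe40 read 6.48 and 6.39 at 0 h, 5.58 and 5.39 at 6 h, and 4.19 and 4.22 at 12 h, and Pfkfb3 also went down at each step. Among the dips Aire and Efna1 fell at 6 h by 2.21 and 2.18 on the log2 scale, whereas Txnip differed by -0.01 (adjusted p of 0.981) and Clk2 by -0.07 (0.644).

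**Figure D4:**
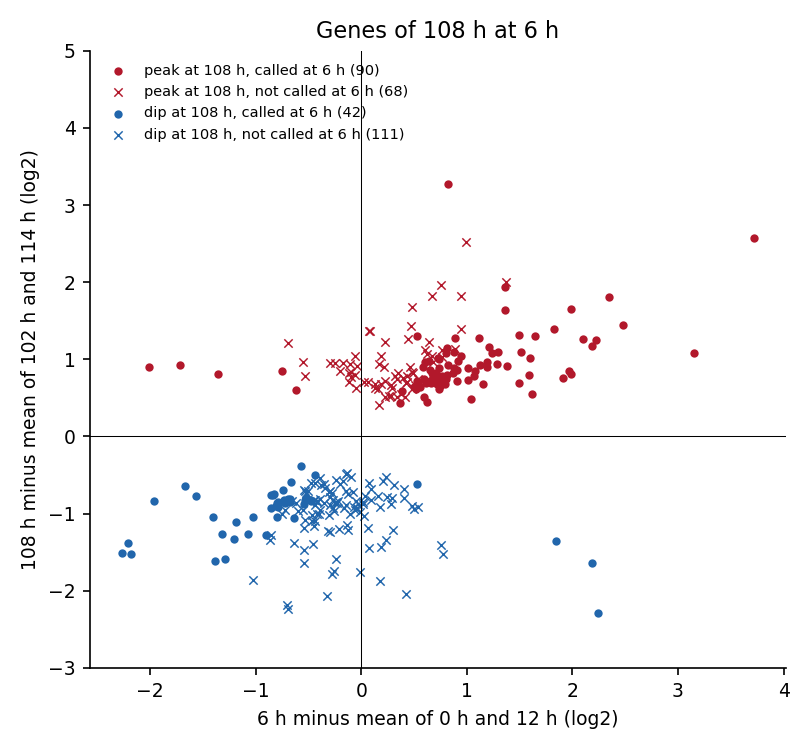
Difference between 6 h and the mean of 0 h and 12 h (log2, horizontal axis) against the difference between 108 h and the mean of 102 h and 114 h (log2, vertical axis) for the 158 peak genes (red) and 153 dip genes (blue), with dots for genes called at 6 h in either direction and crosses for genes not called there. Most peak genes (137 of 158) lie to the right of 0 and most dip genes (120 of 153) to its left, with 5 peak genes called lower at 6 h and 4 dip genes called higher. Of all 14296 genes (not drawn), 7159 were positive and 7137 negative at 6 h.

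Along the course the same contrast, a time point against the mean of those 6 h before and after, called 1778 genes for the 6 h point, 74 genes for 12 h and 1 gene for 18 h. It called 0 genes at each time point from 24 h to 60 h and from 72 h to 90 h in limma, where between 90 and 1217 genes were higher and between 135 and 1173 lower at an unadjusted p under 0.05. It called 5 genes for 66 h, 6 genes for 96 h, 17 for 102 h, the 311 described above for 108 h and 19 for 114 h. Neighbouring contrasts share libraries and are not independent. Of the 158 peak genes, 108 h gave the highest mean of all 21 time points in 109, and of the 153 dip genes it gave the lowest in 121. Over all genes 108 h gave the highest mean in 10.7% and the lowest in 10.9%.

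**Figure D5:**
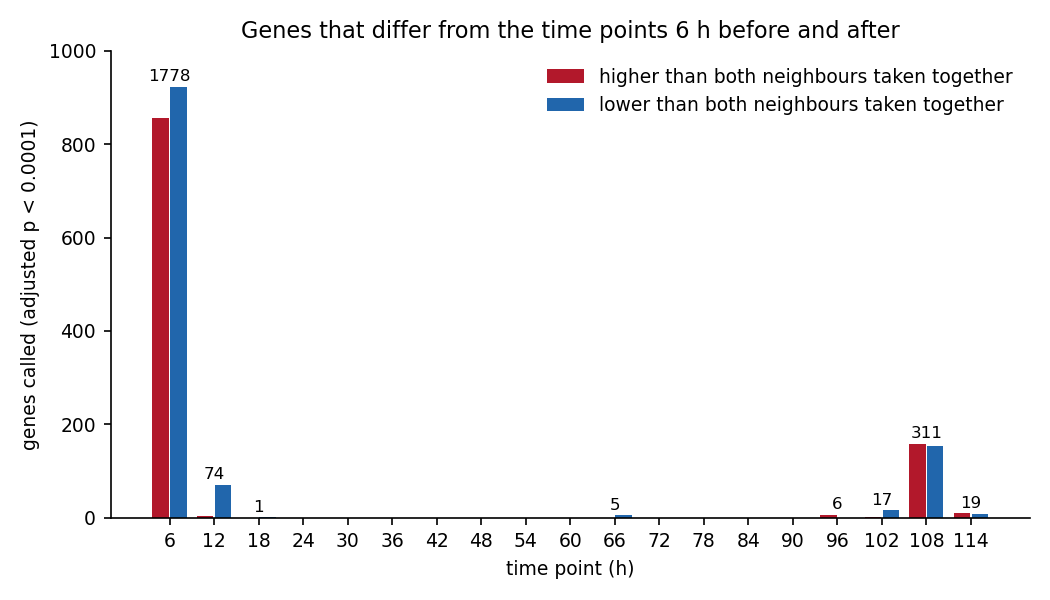
Genes called at an adjusted p under 0.0001 (vertical axis) when each interior time point in hours (horizontal axis) was compared with the mean of the time points 6 h before and after, red for higher and blue for lower, with the sum above each pair of bars. The bars reach 855 higher and 923 lower genes at 6 h (sum of 1778), and 158 and 153 at 108 h (sum of 311). The sum is no more than 19 at any time point from 18 h to 102 h or at 114 h.

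The flanking time points differed less from each other than from 108 h. Between 114 h and 102 h 191 genes (1.34%) were called, 106 higher and 85 lower at 114 h, and 304 with the replicate block. Among the peak genes 8 were higher and 3 lower at 114 h than at 102 h, with a median of 0.27, and among the dip genes 4 were higher and 1 lower, with a median of 0.01. Both steps, from 102 h to 108 h and from 108 h to 114 h, passed the threshold on their own in 47 peak genes and 34 dip genes. Over all 14296 genes they did so in 82. The steps use the libraries that chose the peak and dip genes, so these counts follow in part from that choice.

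Against 96 h and 120 h, 12 h away on each side, 947 genes (6.62%) were called, 450 higher and 497 lower at 108 h. That comparison shares the 108 h libraries with the main one and is given beside it as values. The median difference of the peak genes was 0.99 against 96 h and 120 h and 0.85 against 102 h and 114 h, and that of the dip genes was -1.14 and -0.89. Replicates A and B of 96 h were the most distant pair of the course (88.5, against 39.4 at 108 h). Against 120 h alone the median was 0.88 in the peak genes and -1.08 in the dip genes.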

How the data were processed

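RNA from 42 libraries, 21 time points in duplicate, was counted per gene. Per the methods, the authors used Trim Galore! for trimming, TopHat2 for alignment on mm10 and HTSeq for counts on GENCODE vM2 genes, kept genes over 1 CPM in at least 2 samples, and normalized with edgeR and voom (versions not given in the sources used here). The deposited values are log2 CPM with the voom offset of 0.5 reads. Back-transformed values lay within 2.91e-08 of whole reads, with 10120972 to 51652434 counted reads per library (median 29692082). Genes at few reads carry counting error that the offset shrinks.

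Groups were taken from the labels. The deposited log2 values were fitted with limma 3.58.1 in R 4.3.3 (lmFit, contrasts.fit, eBayes with trend), with a factor of 21 time points over all 42 libraries (residual df of 21), and p-values were adjusted by Benjamini-Hochberg over 14296 genes, called at adjusted p < 0.0001. All p-values are two-sided. Where a value is given as x ± y in the gene results, y is the SE of the fitted difference. Same-letter libraries deviated together among 102 h, 108 h and 114 h (residual correlation of 0.145 to 0.163 for each pair of time points), so the letters were taken to pair the cultures, and a fit with a replicate block was run. Over all 210 pairs of time points the mean correlation was 0.0795, and 68.6% were positive.

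Named genes were the 12 largest called peaks and dips whose higher group averaged 2 log2 CPM or more. To these were added up to 4 called members per list by moderated statistic, or 2 well expressed members where none was called. The cell type markers and 7 genes chosen from earlier results of these data were added too. The main text of the paper names none of the 7. Other members of a list named beside them were chosen after their values were seen. The members and the 35 gene lists were chosen with earlier results of these data known. Coordinates are those of GENCODE vM21 on GRCm38, matched by gene identifier for 14177 genes, and promoters are those of RefSeq on GRCm38.p6. Python 3.11.15, pandas 2.3.3 and matplotlib 3.10.9 were used. The fit was tested on simulated data. The alternatives were other normalizations, weights, flanks, filters and thresholds, the 6 libraries alone, and leaving out each library.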

Additional observations from a re-analysis of the deposited data

Results flagged for a closer look

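Of the 311 genes of 108 h, 9 were called in the opposite direction at 6 h (against 0 h and 12 h), and the contrast between both differences was itself tested in limma. Among the peak genes, Irf1, an interferon regulatory factor, was higher at 108 h by 0.85 and lower at 6 h by 0.75 (a difference of -0.75), which gave 1.60 between them (adjusted p of 2.76e-09). The contrast was 2.64 for Fgf5 (1.72e-09), 2.17 for Frmd4b (4.64e-10), 2.91 for Chst15 (1.31e-11) and 1.22 for Fzd7 (6.14e-08). Fgf5 was at few reads at 6 h (-2.32 in A and -1.93 in B, log2 CPM). Its SE comes from 1 spread shared across all time points, so counting error at that level is not fully reflected in its adjusted p. All 5 had their 6 h libraries below those of 0 h and 12 h on average.

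Among the dip genes, Mtrr, a methionine synthase reductase, gave -1.15 (adjusted p of 8.24e-07), the potassium channel gene Kcnh8 -4.53 (5.89e-10), Tubb3 -3.20 (4.21e-09) and Miat -3.83 (5.34e-08). Kcnh8 read 0.52 and 0.16 log2 CPM at 102 h, -1.34 and -1.72 at 108 h, and 1.03 and 1.31 at 114 h, and was higher by 2.24 at 6 h. These genes were listed because their calls differ in sign, so the contrasts describe them and are not independent of that choice.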

How the results depend on the processing

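All 158 peak genes and all 153 dip genes kept the sign of their difference under each alternative in which they were tested (152 dip genes passed a filter of a mean of at least 0 log2 CPM). In fits on the same values, such as with a library left out or another flank, this follows largely from the peak or dip that chose them. The number of calls moved. With the replicate block 252 genes were called higher and peaked, and 304 differed between 114 h and 102 h, and the block ended the call of none of the 311 genes. With the 6 libraries alone, 23 genes were called higher and 0 lower (22 of the 158 among them), where all 158 and 153 had an adjusted p under 0.05 in that limma fit, the highest being 0.0108 and 0.0201. With voom precision weights 92 genes were lower, 91 of them dips. Against 114 h alone 105 genes were higher, and against 102 h alone 96 were lower. At an adjusted p under 0.05, 1159 were higher and 1207 lower, with 1080 peaks and 1139 dips. Leaving out 1 library at a time gave 39 to 130 genes higher (39 to 129 peaks) and 29 to 123 lower or dipping. Of the 51 named genes that were called, 51 were called with the replicate block, 49 on log2(CPM + 1), 44 after quantile normalization and 11 with the 6 libraries alone. After quantile normalization the medians of the formative, ribosomal, oxidative phosphorylation, p53 and DNA replication lists, which lay between 0.00 and 0.03, turned negative (the lowest -0.09). The causes were not tested. With 2 libraries per time point, the spread of a single gene rests on the whole course, and a gene that varied between duplicates elsewhere had less chance of a call at 108 h.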

Other observations

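The peak and dip genes were also described by what the annotation gives for them. Of the 158 peak genes 1 was noncoding (0.633%), against 8 of the 153 dip genes (5.23%) and 565 of all genes (3.95%). The median exonic length was 5337 bases in peak genes, 3956 in dip genes and 4300 over all genes, the median genomic span 25184, 13037 and 22889 bases, and the median GC content 48.8%, 51.6% and 50%. The median level over the course was 5.53 log2 CPM in peak genes and 3.92 in dip genes, against 4.33 over all genes. Symbols of zinc finger families made up 5.06% of peak genes, 7.19% of dip genes and 3.01% of all genes.

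Ccng2, a cyclin that is high in resting cells, was a dip gene outside the rule for named genes and was chosen after its values were seen. It read 5.08 and 4.86 log2 CPM at 102 h, 3.73 and 3.66 at 108 h, and 4.51 and 4.79 at 114 h. At 6 h it was lower than at 0 h and 12 h together by 1.19 on the log2 scale.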
